A study of Mus musculus with 12 samples.

Results

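The Ly6 genes encode small cysteine-rich proteins that are held on the cell surface by a glycosylphosphatidylinositol (GPI) anchor. In the mouse they lie in a cluster on chromosome 15, and several of them are antigens of blood cells: Ly6a encodes Sca-1, a marker of haematopoietic stem cells and other progenitors, and Ly6c1 and Ly6c2 encode forms of Ly-6C of monocytes and endothelium. Ly6e encodes a broadly expressed member that serves as a receptor of the placental fusion protein syncytin-A, and Ly6k acts with Tex101 in sperm. The family was chosen by the rise of Ly6f in the knockdown libraries of these same data, so the values of the family's members in the knockdown comparisons are given below as a description without a p-value. Of 8 genes asked for (Ly6a, Ly6c1, Ly6c2, Ly6d, Ly6e, Ly6f, Ly6i and Ly6k), 6 were among the 17576 genes of the expression table. Ly6c2 and Ly6k had no row by symbol or by Entrez number and were not analysed here.

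The cells were C18-4, an immortalized mouse line used as a model of spermatogonial stem cells, and there were 12 RNA-seq libraries in 4 groups of 3. The knockdown group (KD) received lentivirus LV3 with 3 mixed shRNAs against the long noncoding RNA lncRNA5251, and its control 3NC received LV3 with a control sequence. The group labelled as overexpression (OV) received lentivirus LV5 with the whole lncRNA5251, and its control 5NC received LV5 without it. All groups were stably transfected, the labels give the strain as IRC mouse, and no age or further allele is given. The shRNAs were used as a mixture, all groups are of 1 line, and nothing in the sources used here says that the libraries of a group came from separate cultures, so that p-values measure only the spread between these libraries, which may be technical. The LV3 and LV5 groups differ in vector and in any handling that went with it, and these cannot be told apart.

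Values are RPKM, that is reads divided by gene length and by the size of the library, and summed to between 533099 and 580920 in a library. LncRNA5251 has no row of its own in the table, so the change in the targeted RNA was not analysed here. Each of the 3 knockdown shRNAs matched in full and in the sense direction 1 annotated gene, Purb, which fell to 9.32 ± 0.806 RPKM in KD from 33.6 ± 0.624 in 3NC (SD, n = 3 libraries; adjusted p = 1.69e-09, limma with Benjamini-Hochberg adjustment). In OV the Purb value was 27.1 ± 5.30 RPKM against 30.7 ± 1.46 in 5NC, and the libraries overlapped. The germ cell markers Ret and Nanos2 were at 0 in all 12 libraries, and Ddx4 and Dazl reached at most 0.07 and 0.04 RPKM. Of 19 germ cell markers, 18 were listed, 15 of these were below 1 RPKM in every library, and the summed level was 82.6 to 91.3 RPKM in 3NC and 63.6 to 72.0 in KD, and 93.7 to 97.6 in 5NC and 110 to 127 in OV, most of it from Uchl1. The 3 markers tested were Uchl1, at means of 77.1 RPKM in 3NC and 65.1 in KD, the transcription factor Etv5, at 7.81 and 2.35, and Id4, at 1.56 and 0.933, and all were lower in KD at an adjusted p of at most 0.05 (limma), beside 23.5% of all genes tested, with Etv5 past the stricter threshold given below, beside 1.57% of all genes. In 5NC and OV, Uchl1 was at 91.1 and 116 RPKM, Etv5 at 3.10 and 2.86 and Id4 at 1.28 and 1.41, and Uchl1 was the 1 of 3 that was higher in OV at an adjusted p of at most 0.05 (limma), beside 8.07% of all genes, with 0 lower. Etv5 was also lower past the stricter threshold in 5NC against 3NC, so that the control 3NC stood apart for it, beside 2.61% of all genes. In KD against 5NC, 0 of the 3 passed that threshold, beside 3.55%. All 3 were lower there at an adjusted p of at most 0.05 (limma), beside 31.4%. Ret, Nanos2, Ddx4 and Dazl, which define spermatogonia and germ cells, were thus at or near 0 in cells labelled as spermatogonial, while Uchl1, Etv5 and Id4 were expressed.

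The shRNA sequences are shown because a match to a Ly6 gene would bear on the values of that gene. None of them matched a transcript of the 8 Ly6 genes over more than 8 bases in either direction, and the longest run shared with Ly6f was 6 bases for the control Sh3NC and 7, 8 and 6 bases for the 3 knockdown shRNAs.
Sh3NC: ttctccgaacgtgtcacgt
shRNA 1: gctgggacttaatgtccttct
shRNA 2: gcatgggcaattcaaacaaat
shRNA 3: gcttattatgcatcgtaaacc

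Ly6f lies on the plus strand of chromosome 15 from 75268421 to 75272235 (GRCm38, GENCODE M21), with 4 exons, a transcript of 877 bases and a coding sequence of 402 bases. Ly6e is also on the plus strand, from 74955051 to 74959905. The minus strand holds Ly6d from 74762056 to 74763620, Ly6k from 74796874 to 74799986, Ly6i from 74979534 to 74983430, Ly6a from 74994877 to 74998031, Ly6c1 from 75044018 to 75048830 and Ly6c2 from 75108158 to 75111970. Among the 8 genes the closest coding sequence to Ly6f was that of Ly6a, with 84.6% of aligned bases identical, followed by Ly6c1 with 79.9%, Ly6i with 79.4% and Ly6c2 with 78.4%. The neighbour Ly6g, not one of the 8, was at 82.6%. Ly6d, Ly6k and Ly6e were further away, at 58.9%, 58.7% and 56.8%. Ly6c1 and Ly6c2 were 97.7% identical to each other. The first 120 coding bases of Ly6f and its 4 closest relatives among the 8 are shown because they display how far reads of Ly6f can be told from those of its relatives. Capitals mark bases that differ from Ly6f, of which there are 24 in Ly6a, 21 in Ly6c1, 25 in Ly6c2 and 26 in Ly6i.
Ly6f: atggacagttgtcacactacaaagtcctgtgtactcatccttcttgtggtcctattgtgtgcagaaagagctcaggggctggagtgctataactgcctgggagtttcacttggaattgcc
Ly6a: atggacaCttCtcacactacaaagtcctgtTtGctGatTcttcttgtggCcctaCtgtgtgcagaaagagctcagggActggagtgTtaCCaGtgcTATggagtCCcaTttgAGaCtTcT
Ly6c1: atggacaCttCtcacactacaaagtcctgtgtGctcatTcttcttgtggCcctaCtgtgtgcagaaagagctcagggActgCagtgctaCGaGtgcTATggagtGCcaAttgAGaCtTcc
Ly6c2: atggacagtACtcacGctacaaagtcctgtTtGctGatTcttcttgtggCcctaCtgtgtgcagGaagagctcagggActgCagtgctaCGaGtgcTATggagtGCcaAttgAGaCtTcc
Ly6i: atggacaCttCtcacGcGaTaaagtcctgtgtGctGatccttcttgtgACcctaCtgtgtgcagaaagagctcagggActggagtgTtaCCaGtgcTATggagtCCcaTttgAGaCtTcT

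Reads of close paralogs may be shared by the mapping, since the aligner was set to report every hit of a read, and how such reads were then counted per gene is not given in the sources used here. To show which members this touches, every stretch of 50 bases of each transcript was compared with the transcripts of other genes. For Ly6f, 0 of 828 windows were identical to another gene, and 93 (11.2%) were within 2 mismatches of a gene of the same region, most often Ly6a (25 windows) and Ly6g (24 windows). For Ly6e, 0 of 2232 windows were shared under either limit. Of the Ly6a windows 10.0% were identical in other genes and 29.5% were within 2 mismatches, and of the Ly6i windows 4.97% and 32.3%. Ly6c1 was the least separable of the listed members, with 36.7% identical and 99.5% within 2 mismatches, mainly of Ly6c2. The levels of Ly6a, Ly6i and Ly6c1 are therefore uncertain in a way that those of Ly6e and most of Ly6f are not.

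**Figure D1:**
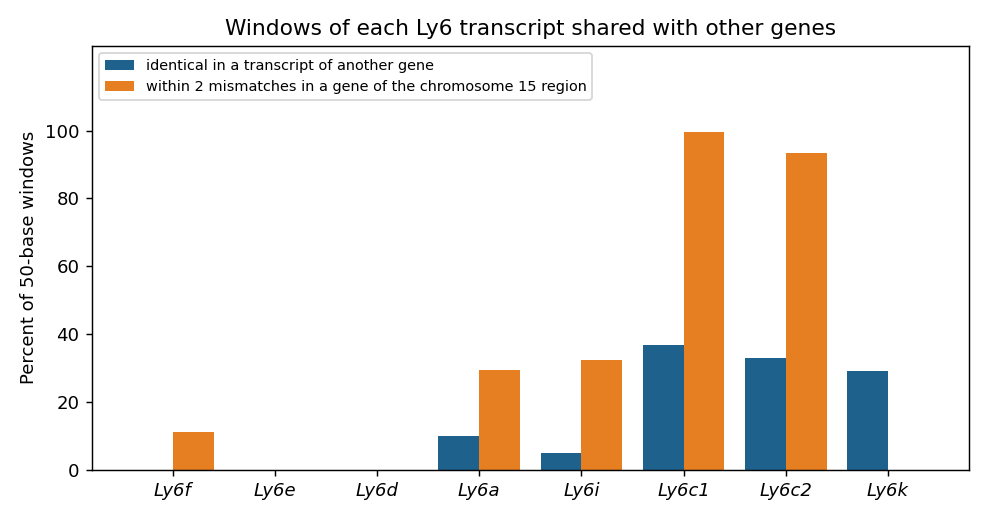
Percent of the 50-base windows of each Ly6 transcript (y axis) that were identical in a transcript of another gene (blue) or within 2 mismatches of a transcript of another gene in the chromosome 15 region (orange), for the 8 genes. Ly6e and Ly6d had 0 shared windows, Ly6f 11.2% with mismatches only, and Ly6c1 99.5%. The identical windows of Ly6k (29.2%) belong to an antisense gene, since identity was sought on both strands and mismatches on the same strand only.

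Ly6f, a little-characterised member of the cluster, held 5.63, 4.99 and 4.56 RPKM in the 3NC libraries and 28.2, 32.3 and 27.6 RPKM in the KD libraries. It held 10.1, 10.2 and 8.73 RPKM in 5NC and 10.3, 11.3 and 9.87 RPKM in OV. The 3 knockdown libraries were above the other 9, the 3NC libraries were below the other 9, and the 5NC and OV libraries overlapped. The group means were 5.06 ± 0.538 in 3NC and 29.4 ± 2.55 in KD, and 9.68 ± 0.820 in 5NC and 10.5 ± 0.739 in OV (RPKM, SD, n = 3). Ly6f thus went from a level above 50.2% of the listed genes in 3NC to a level above 81.6% of them in KD. In 5NC and OV it was above 60.3% and 62.6% of the listed genes. In bulk RNA, here and below, a change in the share of cells that express a gene and a change in RNA per cell cannot be told apart.

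Ly6e held 6.89, 6.28 and 6.48 RPKM in 3NC and 6.30, 6.36 and 6.99 RPKM in KD, with the same mean of 6.55 in both (SD 0.311 and 0.382). It held 4.81, 5.25 and 4.90 RPKM in 5NC and 5.08, 4.80 and 3.92 RPKM in OV, with means of 4.99 ± 0.232 and 4.60 ± 0.605. The 6 LV3 libraries were all above the 6 LV5 libraries, and within each vector the groups overlapped.

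Ly6a held 0.38, 0.38 and 0.69 RPKM in 3NC, 0.52, 0.91 and 0.92 in KD, 1.22, 0.73 and 0.68 in 5NC and 2.05, 1.83 and 1.86 in OV. The 3 libraries of OV were above the other 9, which overlapped between groups. The means were 0.483 ± 0.179, 0.783 ± 0.228, 0.877 ± 0.298 and 1.91 ± 0.119 RPKM in the same order. At the 0.09 RPKM that 1 read appeared to be worth for Ly6c1, these means stand for about 5, 9, 10 and 21 reads, against about 56, 326, 108 and 117 reads for Ly6f. These read numbers are approximate because RPKM does not keep the depth and the length used for each gene is not given.

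The other 3 listed members were close to 0. Ly6c1 held 0.28, 0.09 and 0.28 RPKM in 3NC, 0, 0.09 and 0.09 in KD, 0.09, 0.26 and 0 in 5NC and 0.09, 0.09 and 0 in OV, which is about 3 reads at most. Ly6d, a surface marker of early B-lineage cells, was listed at 0 in 9 libraries and at 0.12, 0.11 and 0.11 RPKM in 5NC replicate 3 and OV replicates 1 and 2. Ly6i was listed at 0 in 11 libraries and at 0.09 RPKM in KD replicate 2. At such values no difference between groups was detectable for any of them.

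**Figure D2:**
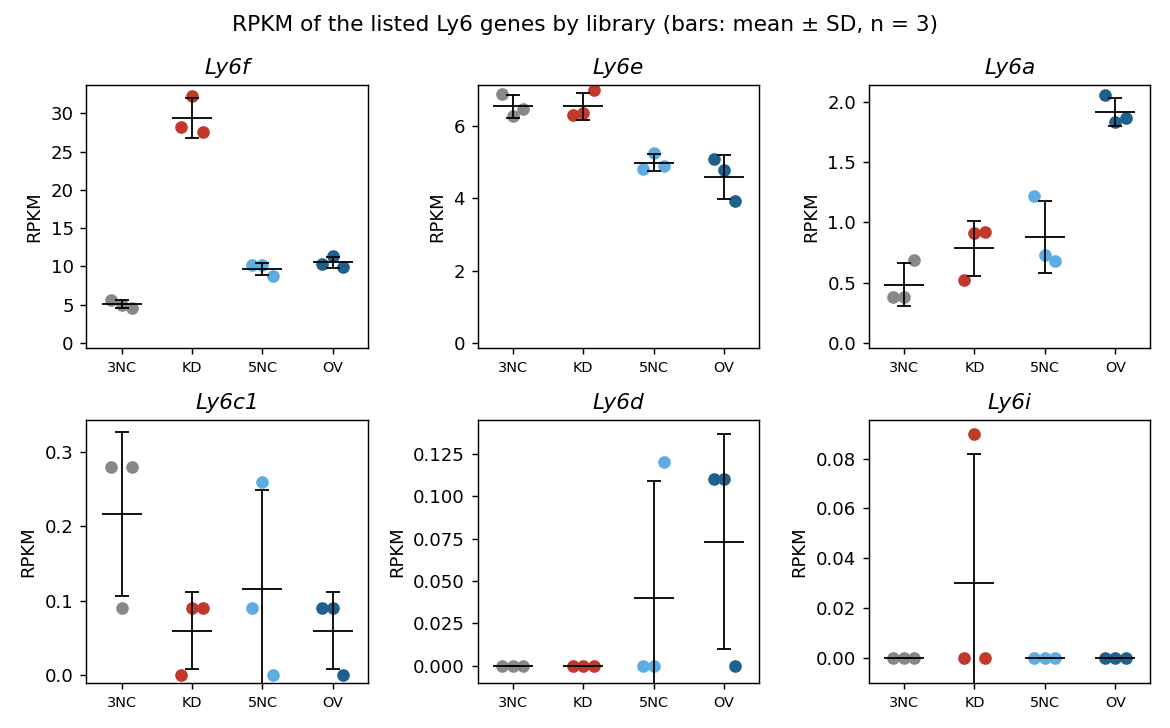
RPKM (y axis, a separate scale for each gene) of the 6 listed Ly6 genes in the 12 libraries, by group. Coloured points are libraries, and black bars are the mean ± SD of 3 libraries, cut off where they reach below the axis. Ly6f lay between 27.6 and 32.3 RPKM in KD and at most at 11.3 elsewhere, Ly6e was lower in the LV5 groups, Ly6a was highest in OV, and Ly6c1, Ly6d and Ly6i stayed at or below 0.28 RPKM.

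Summed over the 6 listed members, the Ly6 level was 12.3 ± 0.765 RPKM in 3NC and 36.8 ± 2.57 in KD, and 15.7 ± 1.10 in 5NC and 17.2 ± 1.33 in OV. Ly6f made up 38.0% to 42.7% of it in the 3NC libraries, 77.5% to 81.3% in KD, 60.5% to 62.4% in 5NC and 58.5% to 63.1% in OV. In 3NC, Ly6e was the highest member and Ly6f the next, and their libraries did not overlap. In the other 3 groups Ly6f was the highest member and Ly6e the next, again without overlap. Ly6a was the third in every group, above Ly6c1, Ly6d and Ly6i.

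Fold changes were fitted on log2(RPKM + 1), which understates the change of low genes, for 11435 genes, those that reached 1 RPKM in 3 or more libraries. Ly6e and Ly6f reached this level in all 12 libraries. Ly6a reached it in 4 libraries, the 3 of OV and 5NC replicate 1, so it was tested only because of the group in which it was high. Ly6c1, Ly6d and Ly6i were not tested. The stricter threshold was an adjusted p up to 0.001 together with a log2 fold change of 1 or more in either direction. It was taken over from the study's methods. A looser threshold was an adjusted p up to 0.05 at any fold.

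In KD against 3NC, Ly6f differed by a log2 fold change of 2.33 (SE 0.08), a ratio of the mean RPKM of 5.81 and rank 3 from the highest of all genes tested. Ly6e differed by 0.00 and Ly6a by 0.26 on the log2 scale (0.60 for Ly6a with a pseudocount of 0.1), and for both the libraries overlapped. Ly6f was thus the 1 of 3 tested members past the threshold, while 1.57% of all genes tested passed it, and it was the 1 member whose libraries did not overlap, which held for 62.8% of all genes. Since Ly6f was selected on this contrast, nothing can be read from these counts. Against 5NC, the other control, the same KD libraries gave Ly6f a log2 fold change of 1.51 (SE 0.08) and a ratio of 3.04, rank 28 from the highest, with 3.55% of all genes past the threshold. Ly6e differed by 0.33 and Ly6a by -0.07 from 5NC, and the libraries did not overlap for Ly6f and Ly6e, as for 69.4% of all genes. These comparisons share the KD libraries.

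The comparison of OV with 5NC sets LV5 with lncRNA5251 against LV5 without it, in libraries that the choice of Ly6f did not use. Whether lncRNA5251 rose in OV was not analysed here, as it has no row of its own. Because Ly6a passed the filter on low values only through the OV libraries, its p-value is taken from the fit without that filter. There Ly6a rose from 0.877 to 1.91 RPKM, a ratio of 2.18 and a log2 fold change of 0.65 (adjusted p = 0.0128, limma with Benjamini-Hochberg adjustment), and its libraries did not overlap with those of 5NC, as for 36.7% of all genes tested. The log2 fold change was 1.08 with a pseudocount of 0.1 in place of 1. Ly6f gave a log2 fold change of 0.11 (SE 0.08, adjusted p = 0.355, limma with the same adjustment) and Ly6e of -0.10 (SE 0.08, adjusted p = 0.374, limma with the same adjustment), and the libraries of both overlapped. The value of Ly6e was -0.011 without OV replicate 3, -0.015 with quantile normalization and -0.16 without OV replicate 1. At an adjusted p of at most 0.05, 8.07% of all genes tested were higher and 13.9% lower in OV. By the stricter threshold limma called 0 members and 0% of all genes here, where 4240 genes had an unadjusted p under 0.05.

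The controls of the different vectors, neither of which carried a sequence of lncRNA5251, were also set against each other. Ly6f was higher in 5NC than in 3NC by a log2 fold change of 0.82 (SE 0.08), a ratio of 1.91, and no library overlapped, which is given without a p-value because the 3NC libraries had a part in the choice of Ly6f. Ly6e was lower in 5NC by a log2 fold change of -0.33 (SE 0.08, adjusted p = 0.00234, limma with Benjamini-Hochberg adjustment), a ratio of 0.761, also without overlap. Ly6a differed by 0.33 with overlapping libraries, and without the filter on low values it did not pass (adjusted p = 0.0555, limma with the same adjustment). With a pseudocount of 0.1 the log2 fold change of Ly6a was 0.74. With single libraries left out it lay between 0.21, without 5NC replicate 1, and 0.43, without 3NC replicate 3. At an adjusted p of at most 0.05, 31.0% of all genes tested were higher and 25.6% lower in 5NC, the libraries did not overlap for 69.3%, and 2.61% passed the stricter threshold, none of them a member. This comparison shares the 3NC libraries with that of KD against 3NC, and the 5NC libraries with that of OV against 5NC.

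**Figure D3:**
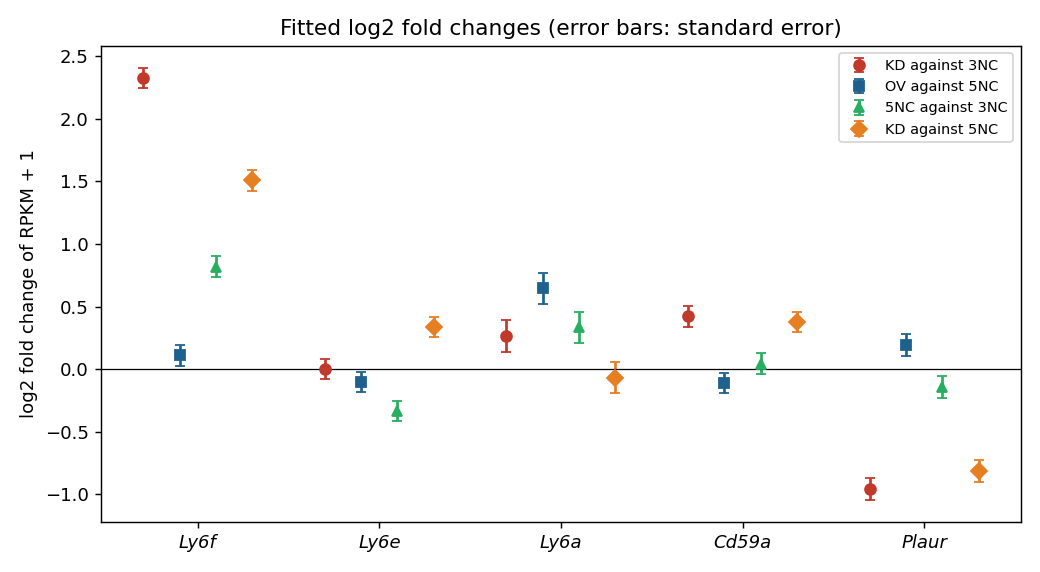
Fitted log2 fold changes of RPKM + 1 (y axis) with their standard errors for the 3 tested Ly6 genes and the relatives Cd59a and Plaur (x axis) in the 4 comparisons, given by colour and marker. Ly6f was at 2.33 and 1.51 in the comparisons of KD, at 0.82 between the vector controls and at 0.11 in OV, while the value of Ly6a that stands apart is the 0.65 in OV.

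**Figure D4:**
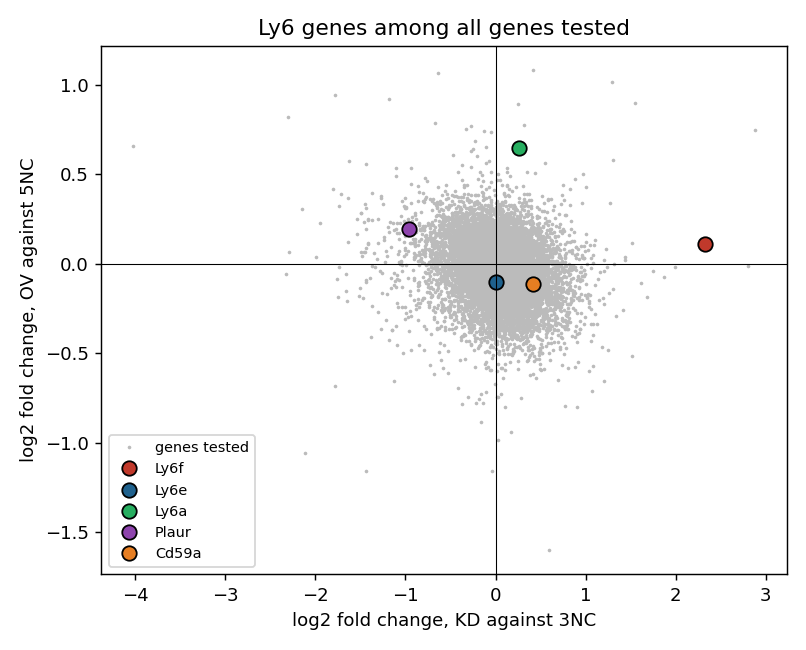
Log2 fold change of KD against 3NC (x axis) and of OV against 5NC (y axis) for the 11435 genes tested (grey points), with the 3 tested Ly6 genes and Plaur and Cd59a as coloured points. Ly6f lies far to the right at 2.33 and near 0 on the y axis at 0.11, Ly6a lies at 0.65 on the y axis, and Ly6e lies within the bulk of the genes.

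Other genes of the wider Ly6/uPAR family, which share the protein fold of the Ly6 proteins, were mostly below 1 RPKM. Of 43 such genes, 25 were listed, 22 of these were below 1 RPKM in every library, and 2 were tested. Plaur, the receptor of the urokinase plasminogen activator, held 32.4 ± 1.27 RPKM in 3NC and 16.3 ± 2.69 in KD, and 29.2 ± 1.03 in 5NC and 33.5 ± 2.59 in OV. It fell in KD against 3NC by a log2 fold change of -0.96 (SE 0.09, adjusted p = 3.88e-07, limma with Benjamini-Hochberg adjustment), just short of the fold limit and opposite in sign to Ly6f. In OV against 5NC Plaur gave 0.19 (adjusted p = 0.129, limma with the same adjustment). Cd59a, an inhibitor of the terminal complement complex, held 5.10 ± 0.676 RPKM in 3NC and 7.13 ± 0.0709 in KD, and 5.27 ± 0.472 in 5NC and 4.80 ± 0.281 in OV. It rose in KD against 3NC by a log2 fold change of 0.42 (SE 0.08, adjusted p = 0.000511, limma with the same adjustment), and in OV against 5NC it gave -0.11 (adjusted p = 0.338, limma with the same adjustment). Tex101, the partner of Ly6k in sperm, reached at most 0.14 RPKM.

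Between Ly6d and Ly6f the annotation has 22 genes that are not among the 8, of which 8 are protein coding and 9 are pseudogenes. Of these, 3 were listed, namely the steroid hydroxylase Cyp11b1, Ly6m and the granulocyte antigen Ly6g, and all were below 1 RPKM in every library, with maxima of 0.03, 0 and 0.09. These 3 genes were thus at or near 0 also in the libraries in which Ly6f was at 27.6 to 32.3 RPKM.

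Ly6 proteins depend on the GPI anchor, so 31 genes of its synthesis, attachment or later processing were counted. All 31 were listed and 28 were tested. By limma 0 of the 28 passed the stricter threshold in KD against 3NC, beside 1.57% of all genes, and 0 in OV against 5NC, beside 0%. At an adjusted p of at most 0.05 there were 9 higher and 4 lower of the 28 in KD against 3NC, where 31.9% of all genes tested were higher and 23.5% lower, with a median log2 fold change of 0.09 beside 0.04 over all genes, and 1 higher and 3 lower in OV against 5NC, beside 8.07% and 13.9% of all genes, with a median of -0.03 beside -0.03. In 5NC against 3NC there were 11 higher and 3 lower, beside 31.0% and 25.6% of all genes, with a median of 0.09 beside 0.02, and 1 passed the stricter threshold, beside 2.61%. This was Piga, the catalytic subunit of the enzyme that starts GPI synthesis, at 8.69 ± 0.288 RPKM in 3NC and 4.05 ± 0.506 in KD, and 3.73 ± 0.176 in 5NC and 2.89 ± 0.555 in OV. It fell in 5NC against 3NC by a log2 fold change of -1.03 (SE 0.10, adjusted p = 3.33e-07, limma with Benjamini-Hochberg adjustment), and in KD against 3NC by -0.94 (adjusted p = 1.04e-06, limma with the same adjustment), so the control 3NC was the group that stood apart. In KD against 5NC, Piga gave 0.09 and the libraries overlapped, and 8 genes of the list were higher and 7 lower at an adjusted p of at most 0.05, beside 34.0% and 31.4% of all genes, with a median of 0.01 beside 0.02.

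Ly6a, Ly6c1 and Ly6e are known to respond to interferon in blood cells, and a list of 50 interferon-stimulated genes was counted for this reason, of which 48 were listed and 40 tested. In OV against 5NC, where Ly6a rose, 0 of the 40 were higher and 27 were lower at an adjusted p of at most 0.05, beside 8.07% and 13.9% of all genes tested, with a median log2 fold change of -0.28 beside -0.03 over all genes. In KD against 3NC, 15 were higher and 12 lower, beside 31.9% and 23.5% of all genes, with a median of 0.04 beside 0.04, and 2 passed the stricter threshold, both lower, beside 1.57% of all genes. These were the 2'-5' oligoadenylate synthetase-like genes Oasl1, at 17.2 ± 0.857 RPKM in 3NC and 5.75 ± 0.750 in KD (log2 fold change -1.44, adjusted p = 1.37e-09, limma with Benjamini-Hochberg adjustment), and Oasl2, at 13.4 ± 1.06 and 5.18 ± 0.302 (-1.22, adjusted p = 2.18e-09, limma with the same adjustment). In 5NC against 3NC, 18 were higher and 6 lower, beside 31.0% and 25.6% of all genes, with a median of 0.15 beside 0.02, and Ifit1, an inhibitor of viral translation, passed the stricter threshold, as 2.61% of all genes did, at 1.06 (1.40 ± 0.179 RPKM in 3NC and 4.00 ± 0.185 in 5NC, adjusted p = 6.46e-07, limma with the same adjustment). In KD against 5NC, 12 were higher and 19 lower, beside 34.0% and 31.4% of all genes, with a median of -0.13 beside 0.02, and 1 higher and 6 lower passed the stricter threshold, beside 3.55% of all genes in either direction. The chemokine Cxcl10 fell from 13.6 ± 0.635 RPKM in 3NC to 7.67 ± 0.250 in KD (log2 fold change -0.75, adjusted p = 1.03e-06, limma with the same adjustment). The immunoproteasome subunit Psmb9 rose from 8.09 ± 0.746 to 17.0 ± 0.770 RPKM (0.99, adjusted p = 8.50e-07, limma with the same adjustment). The part of interferon in the values of the Ly6 genes was not tested.

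Because Ly6 proteins are antigens of blood and endothelium, the markers of other cell types were counted in the same libraries. Of 23 blood cell markers, 17 were listed, 14 of these were below 1 RPKM in every library, and Ptprc and Csf1r reached at most 0.07 and 0.06 RPKM. The 1 tested was the macrophage gene Cd68, at means of 5.05 RPKM in 3NC and 2.69 in KD, and 2.18 in 5NC and 1.86 in OV. The summed level of the list was 6.50 to 7.80 RPKM in 3NC and 4.67 to 5.95 in KD, and 3.52 to 3.96 in 5NC and 2.57 to 4.49 in OV. Cd68 carried much of the sum in 3NC, and the other 16 listed markers summed to 1.96 to 2.39 RPKM in 3NC and 1.94 to 3.11 in KD, and 1.52 to 1.72 in 5NC and 1.31 to 2.22 in OV. Of 14 endothelial markers, 10 were listed and 8 of these were below 1 RPKM in every library, with Cdh5 at 0.02 and Pecam1 at 0.29 RPKM at most. Their sum was 14.8 to 16.1 RPKM in 3NC and 19.4 to 20.5 in KD, and 14.5 to 16.7 in 5NC and 12.3 to 13.3 in OV, most of it from the secreted factor Egfl7 and the VEGF receptor Flt1. Egfl7 was at 7.31 RPKM in 3NC and 12.3 in KD, and 8.26 in 5NC and 7.10 in OV, and Flt1 was at 6.87 and 6.28, and 5.91 and 3.98. At an adjusted p of at most 0.05, Egfl7 was higher in KD against 3NC, beside 31.9% of all genes, and Flt1 was lower in OV against 5NC, beside 13.9%. Of 16 Sertoli and Leydig cell markers, 13 were listed and 6 tested, with sums from 63.3 to 65.2 RPKM in 3NC and 66.1 to 67.6 in KD, and 68.9 to 71.1 in 5NC and 71.4 to 75.0 in OV, led by Wt1, Clu and Gata4. At an adjusted p of at most 0.05, 1 of the 6 was higher and 0 lower in KD against 3NC, 0 and 0 in OV against 5NC, and 3 and 1 in 5NC against 3NC, beside the same shares of all genes as below for the mesenchymal list, with medians of 0.02, -0.01 and 0.22 on the log2 scale. Wt1 was at 50.3 RPKM in 3NC and 50.4 in KD, and 52.3 in 5NC and 54.9 in OV, Clu at 2.80 and 5.86, and 6.82 and 7.55, and Gata4 at 5.15 and 4.54, and 6.23 and 6.18. Clu, higher, and Rhox5, lower from 2.89 to 0.913 RPKM, passed the stricter threshold in 5NC against 3NC, as 2.61% of all genes did. Of 15 mesenchymal markers, 14 were listed and 10 tested, with sums from 1200 to 1243 RPKM in 3NC and 1485 to 1550 in KD, and 1530 to 1576 in 5NC and 1651 to 1794 in OV, led by Vim, S100a4 and Col1a1. At an adjusted p of at most 0.05, 7 of the 10 were higher and 1 lower in KD against 3NC, beside 31.9% and 23.5% of all genes, 2 and 2 in OV against 5NC, beside 8.07% and 13.9%, and 5 and 1 in 5NC against 3NC, beside 31.0% and 25.6%. The median log2 fold changes were 0.47, -0.03 and 0.19, beside 0.04, -0.03 and 0.02 over all genes. Against the other control, 5NC, the KD libraries had 2 of the 10 higher and 4 lower at an adjusted p of at most 0.05. The shares of all genes there were 34.0% and 31.4%, and the median was -0.03 beside 0.02, so the rise in KD was seen against 3NC only. Past the stricter threshold in KD against 3NC were the smooth muscle actin Acta2, higher, and the fibronectin Fn1, lower, beside 1.57% of all genes. In 5NC against 3NC they were Acta2, the collagen Col3a1 and the decorin Dcn, all higher, beside 2.61%. In KD against 5NC, 1 of the 10 was past it, lower, beside 3.55%, and in OV against 5NC 0, beside 0%. Acta2 was at 8.52 RPKM in 3NC and 18.6 in KD, and 21.2 in 5NC and 13.6 in OV, Fn1 at 8.28 and 3.45, and 7.68 and 7.66, Col3a1 at 36.0 and 59.5, and 118 and 104, and Dcn at 21.6 and 36.1, and 112 and 108. The part of these cell types in the Ly6 values was not tested.

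Over the 12 libraries the gene whose log2(RPKM + 1) followed Ly6f most closely was the progestin receptor family gene Paqr8 (Pearson's r = 0.985), with mean RPKM of 0.877 in 3NC and 2.72 in KD, and 1.35 in 5NC and 1.30 in OV. The next were the cytochrome P450 gene Cyp2c55 (0.980), the myosin light chain gene Myl12b (0.977), the protein kinase C gene Prkcz (0.974) and the translocon component Sec62 (0.973). The most like Ly6a were the secretory pathway gene Tmed9 (0.948) and the mitochondrial ribosome gene Mrpl58 (0.919), and the most like Ly6e were the transcription factor Tcf7 (0.965) and the RNA-binding protein gene Celf4 (0.964). Among the members themselves the coefficients were 0.148 for Ly6f and Ly6a, 0.160 for Ly6f and Ly6e and -0.711 for Ly6a and Ly6e. The 12 points are 4 groups of 3 libraries, so these values mostly describe the order of the group means and carry no test.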

How the data were processed

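RNA of C18-4 cells was measured in 12 libraries, 3 in each of the groups 3NC, KD, 5NC and OV, which were taken from the sample labels. The authors deposited RPKM values of 17576 genes. According to their supplementary methods, oligo(dT) beads were used to enrich mRNA, while the labels name total RNA, and reads were mapped to reference genes with SOAPaligner. The aligner was set to report all hits of a read, and its mismatch option (3) differs from the limit given in words (2). The genome build and how reads with several hits were counted per gene are not given in the sources used here. RPKM does not keep the read number, so the depth is unknown, and no interval for counting error was given. The supplementary heading of this experiment names lncRNA8276, and the labels were followed.

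limma 3.58.1 in R 4.3.3 (eBayes with an intensity trend, group as the only term, all 12 libraries) was fitted to log2(RPKM + 1), with Benjamini-Hochberg adjustment of p-values over 11435 genes. How well the fit finds small changes, or changes of genes as low as Ly6a, was not tested. An exact permutation test of 3 against 3 libraries cannot give a two-sided p below 0.1. The members and the gene lists were chosen with earlier results of these data known. Named genes were the members, tested relatives, at most 5 called genes of the GPI and interferon lists, the 3 highest tested genes of each marker list, the genes most correlated with each tested member, and, as markers at or near 0, a few chosen after their values were seen, as were the markers past the stricter threshold. Lists were counted, not tested. Positions and transcripts were from GENCODE M21 on GRCm38, with the longest coding transcript of each gene, and coding sequences were aligned with Biopython 1.88. Alternatives were another pseudocount, no filter, quantile normalization, a fit to 6 libraries, a replicate block, each library left out and a looser threshold. Python 3.11.15 with matplotlib 3.10.9 made the figures.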

Additional observations from a re-analysis of the deposited data

How the results depend on the processing

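Of 132 fold changes of single members under the alternatives, 127 kept their sign and stayed on the same side of the stricter threshold, and of 48 counts of members changed, 45 did not move. In this balanced design, no filter, a fit to 6 libraries and a replicate block cannot alter a fold change. Their signs were therefore kept by construction. Most values of Ly6a and Ly6e also lay far inside the fold limit of 1, so 127 of 132 says little about robustness. With an adjusted p of at most 0.05 and no fold limit, the number of tested members called went from 0 to 1 in OV against 5NC, from 0 to 3 in 5NC against 3NC and from 1 to 2 in KD against 5NC, by the looser rule itself. These counts are a description, since they include Ly6f in comparisons whose libraries chose it, and Ly6a, which entered through its high group. The difference of Ly6e in KD against 3NC, which was 0.00, turned to 0.032 without 3NC replicate 1, to 0.023 without KD replicate 1 and to 0.017 without KD replicate 2, and lay between -0.042 and 0.032 over the libraries left out. That of Ly6a in KD against 5NC turned from -0.070 to 0.041 without KD replicate 1 and to 0.057 without 5NC replicate 1, and lay between -0.14 and 0.057 over the libraries left out. The cause was not tested. A pseudocount of 0.1 moved Ly6a from 0.65 to 1.08 in OV against 5NC, from 0.33 to 0.74 in 5NC against 3NC, from 0.26 to 0.60 in KD against 3NC and from -0.070 to -0.14 in KD against 5NC, since a pseudocount of 1 shrinks low values. Ly6f lay between 2.26 and 2.52 in KD against 3NC, between 1.44 and 1.59 in KD against 5NC, between 0.76 and 0.92 in 5NC against 3NC and between 0.04 and 0.16 in OV against 5NC. Deviations of same-numbered libraries in the groups compared were at most weakly related (r from -0.178 to 0.176, 2 of 12 pairs over 0.1). Differently numbered libraries were not set beside them, so whether the numbers pair the libraries cannot be decided from these values. With a replicate block the number of members changed was 1, 0, 0 and 1 in KD against 3NC, OV against 5NC, 5NC against 3NC and KD against 5NC, as without it. Ly6a lay near 1 RPKM, where the depth behind a value is unknown, and Ly6c1, Ly6d and Ly6i were too low to be tested.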
